A study of Rattus norvegicus with 4 samples.

Results

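The genes that copy DNA and the genes that divide the cell were compared in rat colon between the mesenchymal stem cell transplantation (MSCT) group and the control group. The gene set was a named list of 58 genes, 23 of S phase and DNA synthesis and 35 of mitosis, and a gene was taken as measured where a RefSeq transcript of that name had a value on all 4 arrays. This was so for 30 of the 58 genes, among 6968 genes measured by name, with 13 genes of S phase and DNA synthesis and 17 of mitosis. Each of the 30 had a single row. No row carried the name of the 28 others, which were not analysed here. They were Mcm2, Mcm3, Mcm4, Mcm5, Mcm6, Tk1, Pola1, Rfc4, Gmnn and Cdc6 of S phase, and Top2a, Mki67, Plk4, Bub1b, Mad2l1, Cks1b, Cks2, Kif11, Kif20a, Ube2c, Racgap1, Prc1, Nusap1, Hmgb2, Nek2, Ttk, Ect2 and Tpx2 of mitosis. The lists were drawn up with earlier results of these arrays known.

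Colon RNA of 2 control rats and 2 MSCT rats, all male and per the study's methods of the Sprague Dawley strain, was hybridized to one-color arrays with 1 array per rat. Rats of the MSCT group had colitis induced with 2,4,6-trinitrobenzene sulfonic acid (TNBS), a chemical instilled into the colon, and then received GFP-labeled mesenchymal stem cells through the tail vein. The control rats received no cells. The sample descriptions call them normal, whereas the study's text compares with rats that had inflammatory bowel disease (IBD), so whether the control animals had been given TNBS cannot be told here. The labels give neither the ages of the rats nor the day of sampling, and the study's text gives different days for the arrays in its methods and its results. The pieces were whole tissue, so RNA of the host and of any transplanted cells was measured together, and fewer dividing cells cannot be told apart from less RNA of these genes per cell.

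In the cell cycle, a cell copies its DNA in S phase and separates the copies in mitosis. S phase begins when a ring of MCM proteins, loaded onto replication origins beforehand, opens the double helix. Polymerases held on the DNA by the sliding clamp Pcna then copy both strands from nucleotides made by enzymes such as ribonucleotide reductase and thymidylate synthase. Entry into mitosis is driven by the kinase Cdk1 with cyclin A or cyclin B, and exit by the anaphase-promoting complex, which marks cyclin B and securin for destruction. In the colon, cells divide in the lower part of the crypts and stop dividing as they move up to the surface. Many S phase genes are switched on by E2F transcription factors. Many mitosis genes are switched on later, through a promoter element named the cell cycle genes homology region (CHR) and nearby CCAAT boxes bound by NF-Y.

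The promoters are shown because these elements occur in different shares of the S phase and the mitosis genes. A promoter was taken as 250 bases before to 50 bases after a transcript start in the RefSeq promoter table of rat assembly GRCr8. The table held 20 windows for 20 of the 23 S phase genes and 31 windows for 30 of the 35 mitosis genes. Mcm4, Rrm2, Cdc6, Ccna2, Aurkb, Ube2c, Racgap1 and Tpx2 had no entry. The letters searched on both strands were TTTGAA for CHR, CCAAT for the NF-Y box, and TTCCCGC or TTGGCGC for E2F. TTGGCGC read on the other strand can overlap a CCAAT box. Each sequence printed holds the 150 bases before the start, 5′ to 3′ on the strand of the gene, with matches in capitals. Cdca3 (chr4:159321053-159321202, plus strand), Cdk1 (chr20:19265143-19265292, plus strand) and Pttg1 (chr10:28406327-28406476, minus strand) were the mitosis genes with an entry and the largest differences at an unadjusted p under 0.05.
Cdca3: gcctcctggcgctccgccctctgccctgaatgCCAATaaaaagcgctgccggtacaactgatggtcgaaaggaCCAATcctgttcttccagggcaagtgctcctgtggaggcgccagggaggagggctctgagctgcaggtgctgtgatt
Cdk1: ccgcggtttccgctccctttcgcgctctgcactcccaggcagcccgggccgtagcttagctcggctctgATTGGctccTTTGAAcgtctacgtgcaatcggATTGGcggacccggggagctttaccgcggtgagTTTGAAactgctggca
Pttg1: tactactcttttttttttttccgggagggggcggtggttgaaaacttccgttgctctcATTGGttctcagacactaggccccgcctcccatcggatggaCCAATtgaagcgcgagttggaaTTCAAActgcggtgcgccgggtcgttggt
Cdk1 and Pttg1 hold both a CHR match and CCAAT boxes, and Cdca3 holds CCAAT boxes without the CHR letters in its window. Pola2 (chr1:212680543-212680692, minus strand) and Pold1 (chr1:104172983-104173132, minus strand) were the S phase genes chosen by the same rule. Mcm7 (chr12:22163179-22163328, minus strand) was added after its sequence was seen, because its E2F-like match overlaps a CCAAT box.
Pola2: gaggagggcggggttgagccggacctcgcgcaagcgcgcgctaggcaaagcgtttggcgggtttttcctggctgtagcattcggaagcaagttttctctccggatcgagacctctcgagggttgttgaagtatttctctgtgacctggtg
Pold1: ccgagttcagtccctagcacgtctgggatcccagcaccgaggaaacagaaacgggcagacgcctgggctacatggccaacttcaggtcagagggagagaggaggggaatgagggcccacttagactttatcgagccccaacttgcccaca
Mcm7: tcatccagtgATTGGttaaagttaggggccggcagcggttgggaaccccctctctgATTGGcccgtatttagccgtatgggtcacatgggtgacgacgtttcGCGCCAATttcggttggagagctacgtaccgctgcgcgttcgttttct
None of the letters searched occur in the 150 bases shown for Pola2 and Pold1, which says only that these letters are not in this stretch.

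Across the whole lists, CHR letters were found in 20 of 31 mitosis windows (64.5%) and in 1 of 20 S phase windows (5.0%), against 18.3% of all 33469 windows in the table. CCAAT was found in 80.6% of the mitosis windows, 55.0% of the S phase windows and 37.5% of all windows. Both elements stood together in 17 of 31 mitosis windows (54.8%) and in 0 of 20 S phase windows, against 7.41% of all windows. E2F-like letters went the other way, with 13 of 20 S phase windows (65.0%), 5 of 31 mitosis windows (16.1%) and 6.26% of all windows. Among the 21851 windows of protein-coding genes, the shares were 17.1% for CHR, 38.0% for CCAAT and 7.96% for E2F-like letters. The median GC content was 59.0% in the S phase windows, 58.0% in the mitosis windows and 55.0% in those of protein-coding genes. The mitosis genes without a measured row held CHR letters in 12 of 15 windows and the measured ones in 8 of 16. A match of letters is a description of the sequence and no evidence of binding, and no test was made of these shares.

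**Figure D1:**
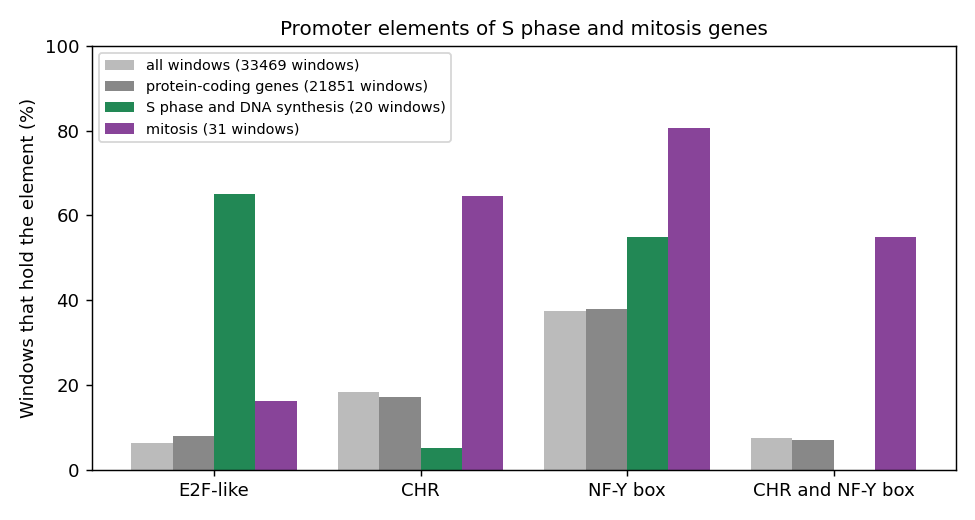
Share of promoter windows (%, y axis) that hold E2F-like letters, the CHR letters, the NF-Y box (CCAAT) or both of the last pair (x axis), for all windows, protein-coding genes and both gene lists. The S phase bar is highest for E2F-like letters (65.0%), and the mitosis bars are highest for CHR (64.5%) and the NF-Y box (80.6%).

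Levels are log2 values of the deposited intensity, and differences are MSCT minus control on that scale, from a limma fit over all 18350 measured rows. The study's screen was an unadjusted p under 0.05 and a change of more than 2-fold. Adjusted by Benjamini-Hochberg across those rows, 0 had a limma p under 0.05, while 2196 rows had an unadjusted p under 0.05. By the methods' t-test the number after adjustment was also 0. That name stands for one-way analysis of variance, the general test of the study's statistics section, used here on a pair of groups. The study's methods name no test for the arrays. With 2 arrays against 2, the smallest two-sided p of an exact permutation test is 0.33, so the p-values rest on the variance that limma shares between rows. The largest gap between array medians was 0.075, and the median row differed by -0.02. Markers of the labeled tissue were bright, with Epcam and Krt20 of the epithelium and Acta2 and Des of smooth muscle at or above percentile 98.6 of all rows.

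Most genes of mitosis and of S phase had lower values in the MSCT group, and the median difference was the larger in the mitosis list. Of the 17 mitosis genes, 15 had a difference below 0, with a median of -0.51 and a range from -1.46 for Cdca3 to 0.48 for Bub3. Of the 13 S phase genes, 11 had a difference below 0, with a median of -0.28 and a range from -0.98 for Pola2 to 0.45 for Chek1. Over all rows, 52% had a difference below 0. Among the 6968 genes measured by name this was 44.2%, with a median of 0.05. Of these 6968, 379 (5.44%) were lower and 475 higher at an unadjusted limma p under 0.05. Both MSCT arrays lay below both control arrays for 20.2% of the 6968. An unadjusted limma p under 0.05 with a lower value in the MSCT group was found for 5 mitosis genes (29.4%; Cdca3, Cdk1, Ccna2, Aurkb and Pttg1) and 2 S phase genes (15.4%; Pola2 and Pold1), against 7.17% of all rows. In the higher direction it was found for 0 of the 30 genes and 4.8% of all rows. The screen was passed by 2 mitosis genes, Cdca3 and Cdk1, and by 0 S phase genes, against 2.51% of all rows in the lower direction. In the higher direction 0 of the 30 genes passed it, against 2.12% of all rows. Both MSCT arrays lay below both control arrays for 11 of 17 mitosis genes and 5 of 13 S phase genes, against 24.5% of all rows. Both lay above both control arrays for 2 mitosis genes, Bub3 and Cdc25b, and 0 S phase genes, against 21.3% of all rows. The smallest limma adjusted p among the 30 genes was 0.257, for Cdca3, so none passed after adjustment over all rows.

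**Figure D2:**
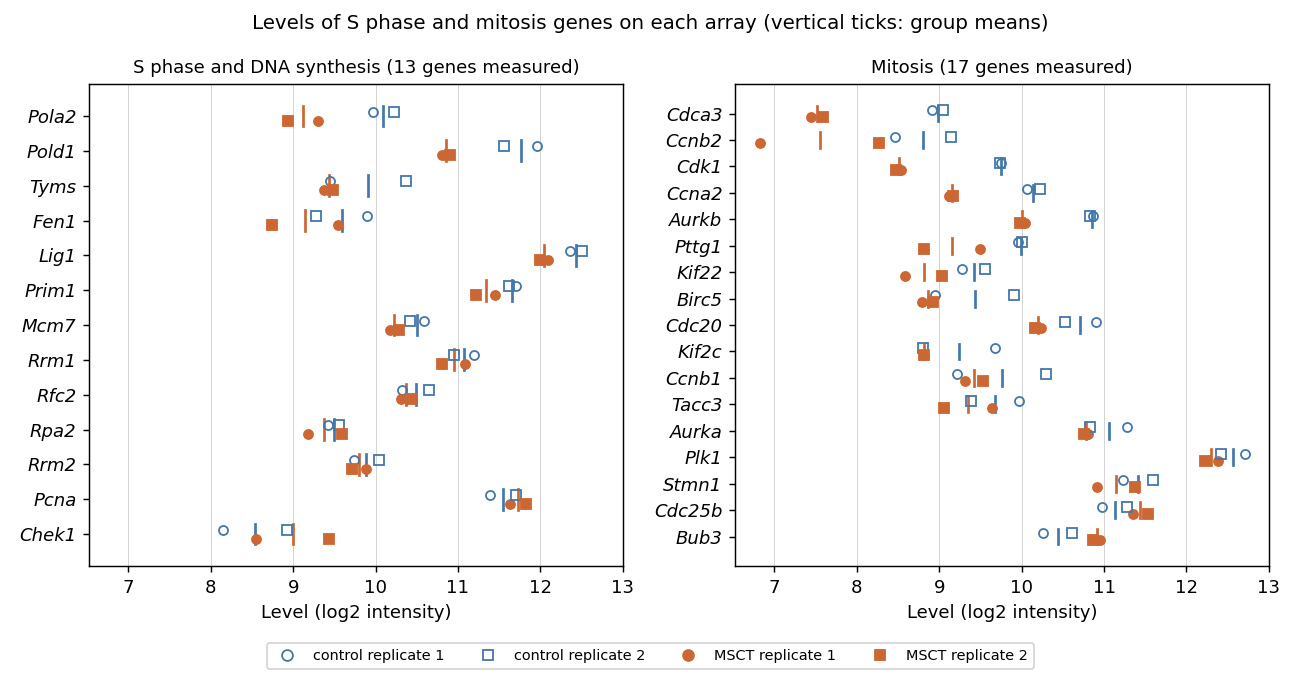
Level (log2 intensity, x axis) of each measured S phase gene (left) and mitosis gene (right) on the 4 arrays, with open blue symbols for control, filled orange symbols for MSCT, circles for replicate 1, squares for replicate 2 and vertical ticks for group means, ordered by the difference. For Cdca3 (8.91 and 9.05 against 7.45 and 7.59) and Cdk1 the groups lie far apart and the replicates close together, while for Ccnb2 between them the MSCT replicates lie wide apart (6.82 and 8.27).

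Cdk1, the kinase that starts mitosis, had levels of 9.75 and 9.74 in control rats and 8.54 and 8.48 in MSCT rats. The replicates nearly coincided and the groups did not overlap. The difference was -1.23 (standard error 0.18; limma adjusted p = 0.26), 2.35-fold lower in the MSCT group. The row lay at percentile 39.8 of all rows by mean level. With an intensity-dependent variance the standard error of Cdk1 was 0.3. Ccna2 encodes cyclin A2, the partner of Cdk2 in S phase and of Cdk1 before mitosis. Its levels were 10.06 and 10.22 in the control group and 9.12 and 9.17 in the MSCT group, again with no overlap. This was a difference of -0.99 (standard error 0.19), 1.99-fold and so just short of the screen's limit. The promoter of Cdk1 printed above holds CHR letters at a pair of places.

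The cyclins B, which bind Cdk1 and are destroyed at anaphase, were noisier. Ccnb2 read 8.46 and 9.14 in control rats and 6.82 and 8.27 in MSCT rats. The groups did not overlap, but the MSCT arrays lay further apart than the group means. Its difference of -1.26 had a standard error of 0.57 and a 95% interval from -2.77 to 0.26. It was -0.53 without MSCT replicate 1 and -1.98 without MSCT replicate 2. With the replicate number as a block its standard error was 0.28 and its unadjusted limma p 0.0126, which passed the screen, and with an intensity-dependent variance the p was 0.045. Ccnb1 read 9.22 and 10.3 in the control group and 9.31 and 9.53 in the MSCT group, so the MSCT arrays lay between the control arrays. Its difference of -0.34 became 0.20 without control replicate 2. Cdc25b, a phosphatase that activates Cdk1, differed by 0.31 (95% interval -0.27 to 0.89), with MSCT arrays at 11.35 and 11.53 above control arrays at 10.98 and 11.28.

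Of the Aurora and Polo kinase genes measured, Aurka, Aurkb and Plk1, Aurkb had the largest difference. It encodes Aurora B, the kinase of the chromosomal passenger complex that corrects faulty attachments of chromosomes to the spindle. Its levels were 10.86 and 10.83 in the control group against 10.04 and 9.98 in the MSCT group, a gap many times the spread of the replicates. The difference was -0.84 (standard error 0.18; limma adjusted p = 0.295), 1.79-fold. Birc5, which encodes survivin of the same complex, read 8.95 and 9.91 in the control group and 8.79 and 8.93 in the MSCT group. Here the groups were barely apart, and the difference of -0.57 became -0.09 without control replicate 2. Aurka, the kinase of the spindle poles, differed by -0.28 (95% interval -0.91 to 0.36). Plk1, a kinase with parts from mitotic entry to cytokinesis, was the brightest row of the list and read 12.71 and 12.42 against 12.38 and 12.22. Its MSCT arrays were both lower, with a difference of -0.27 and a 95% interval from -0.84 to 0.30.

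The group of spindle checkpoint and anaphase genes held Cdca3, the gene with the largest difference of the 30. It encodes a protein that helps to degrade the mitosis-inhibiting kinase Wee1. It read 8.91 and 9.05 on the control arrays against 7.45 and 7.59 on the MSCT arrays, with no overlap. The difference was -1.46 (standard error 0.19; limma adjusted p = 0.257), 2.75-fold, and it stayed between -1.53 and -1.39 with any 1 array left out. The row was dim, at percentile 26.6 of all rows by mean level. With an intensity-dependent variance the standard error of Cdca3 rose to 0.41. Pttg1 encodes securin, which holds back the enzyme that cuts sister chromatids apart. It read 9.96 and 10.01 in the control group against 9.50 and 8.81 in the MSCT group. Both MSCT arrays were lower, but their SD was 0.49 (n = 2) against 0.04 (n = 2) in the control group. The difference was -0.83 (standard error 0.29; limma adjusted p = 0.399), and -0.49 without MSCT replicate 2. Its unadjusted p was also 0.05 or more with equal array medians, after quantile normalization and by the methods' t-test. Cdc20, the activator of the anaphase-promoting complex, read 10.90 and 10.52 against 10.24 and 10.16, a difference of -0.51 (95% interval -1.11 to 0.08). Bub3 of the spindle checkpoint was the exception, at 10.26 and 10.61 in the control group and 10.95 and 10.87 in the MSCT group. Both its MSCT arrays were higher, by 0.48 on average (95% interval -0.10 to 1.05).

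The 4 motors and assembly factors of the spindle had differences below 0, with a median of -0.38 and 0 at an unadjusted p under 0.05. Kif22, a kinesin that pushes chromosome arms, read 9.28 and 9.56 against 8.58 and 9.03 in the MSCT group. The groups did not overlap, and the difference of -0.61 had a 95% interval from -1.29 to 0.06. The groups overlapped for Kif2c, a kinesin that takes microtubules apart (-0.43), for Tacc3, which stabilizes spindle fibers (-0.33), and for Stmn1, which encodes the microtubule destabilizer stathmin (-0.27). For Kif2c, control replicate 1 was at 9.68 and the other 3 arrays between 8.80 and 8.82, so its difference rested on 1 array.

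**Figure D3:**
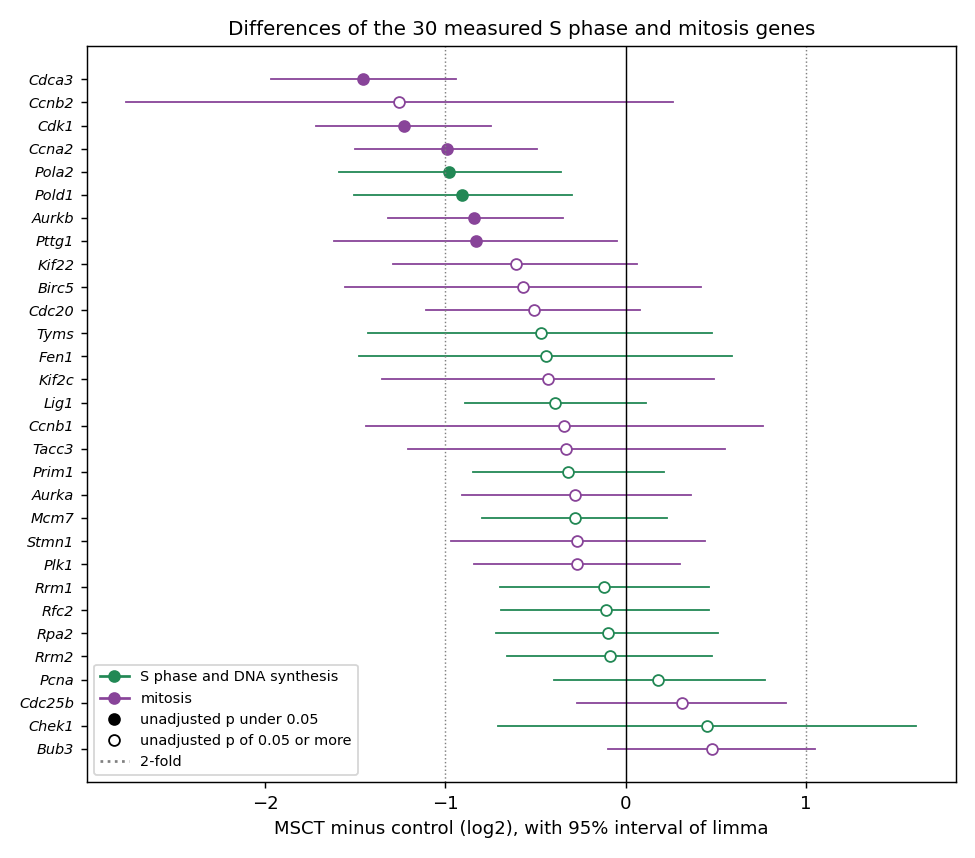
MSCT minus control difference (log2, x axis) of the 30 measured genes with the 95% interval of limma, in green for S phase and DNA synthesis and purple for mitosis; filled points have an unadjusted p under 0.05 and dotted lines mark 2-fold. The filled points are 5 mitosis genes and 2 S phase genes, all below 0, and Cdca3 and Cdk1 lie beyond the 2-fold line with a filled point.

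In the S phase list, the polymerase subunit genes Pola2 and Pold1 had the largest differences. Pola2, a subunit of the polymerase that starts each new strand, read 9.97 and 10.22 in control rats and 9.30 and 8.94 in MSCT rats. The groups did not overlap and differed by -0.98 (standard error 0.23; limma adjusted p = 0.312), 1.97-fold. Pold1 encodes the catalytic subunit of polymerase delta, which copies the lagging strand. It read 11.96 and 11.56 against 10.81 and 10.90, a difference of -0.91 (standard error 0.23; limma adjusted p = 0.324), also without overlap. Prim1, the primase that works with Pola2, read 11.70 and 11.62 against 11.45 and 11.22, a smaller difference of -0.32 (95% interval -0.85 to 0.21). Pcna, the clamp itself and widely used as a marker of dividing cells, read 11.39 and 11.70 in the control group and 11.63 and 11.83 in the MSCT group. The groups overlapped, with a difference of 0.18 and a 95% interval from -0.40 to 0.77. Rfc2 of the clamp loader differed by -0.11 (95% interval -0.69 to 0.46).

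Mcm7, the only measured subunit of the MCM ring, read 10.59 and 10.42 against 10.17 and 10.28 in the MSCT group. The groups lay apart by little, with a difference of -0.28 and a 95% interval from -0.80 to 0.23. In nucleotide synthesis, the groups overlapped for all 3 measured genes. Tyms, thymidylate synthase, read 9.45 and 10.37 in the control group against 9.38 and 9.48, so its difference of -0.47 was set by control replicate 2, without which it was -0.02. Rrm1 and Rrm2, the subunits of ribonucleotide reductase, differed by -0.12 and -0.09. On the lagging strand, Lig1, the ligase that joins the fragments, read 12.36 and 12.50 against 12.09 and 11.99. Its groups did not overlap and its difference was -0.39 (95% interval -0.89 to 0.11). Fen1, which trims the fragments, differed by -0.44 with wide spread (SD 0.44 and 0.57, n = 2 each). Rpa2 of the single-strand binding complex differed by -0.10. Chek1, the kinase that halts the cycle when replication stalls, read 8.15 and 8.93 against 8.55 and 9.44. It was a dim row with overlapping groups and a difference of 0.45 (95% interval -0.71 to 1.61).

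With each gene centered on its mean over the arrays, the median mitosis gene stood at 0.37 and 0.40 in the control rats, against -0.28 and -0.22 in the MSCT rats. The median S phase gene stood at 0.13 and 0.16 in the control rats, against -0.14 and -0.19 in the MSCT rats. The mitosis gap was the wider, and no test of the difference between the lists was made. When any 1 array was removed, the median difference lay between -0.75 and -0.49 for mitosis and between -0.26 and -0.20 for S phase. Of the 7 genes with an unadjusted p under 0.05, Cdk1, Ccna2 and Cdca3 kept it with any 1 array left out. Pola2 and Aurkb lost it without MSCT replicate 2, and Pold1 without MSCT replicate 1. Pttg1 kept it only without MSCT replicate 1. Of the 30 genes, 15 lay in the brighter 50% of rows, and there 8 S phase genes had a median of -0.20 and 7 mitosis genes one of -0.27.

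The other replication and mitosis genes had medians nearer to 0. Of 20 other mitosis genes measured, 13 (65.0%, against 52% of all rows and 44.2% of genes measured by name) had a difference below 0. Their median was -0.11. In 4 of them (20.0%, against 7.17% of all rows) the MSCT value was lower at an unadjusted p under 0.05. Foxm1, the transcription factor that switches on many mitosis genes, read 9.75 and 10.19 in the control group against 8.77 and 8.78 in the MSCT group. Its groups did not overlap, and its difference was -1.19 (standard error 0.23; limma adjusted p = 0.288). Cit, a kinase of cytokinesis, differed by -1.23 and Pbk, a mitotic kinase, by -1.22. The fourth was Nuf2 of the kinetochore (-0.77), named after its value was seen. With 1 array left out, Foxm1 kept its unadjusted p under 0.05 in 4 of 4 cases, Pbk lost it without MSCT replicate 2, and Cit kept it only without MSCT replicate 1. Of 20 other replication genes, 12 (60.0%, against 52% of all rows and 44.2% of genes measured by name) had a difference below 0. Their median was -0.05. Prim2, the partner of Prim1, differed by -0.94 and Top1, a topoisomerase that relaxes DNA, by 0.58, each with an unadjusted p under 0.05. In the lower direction this was 1 of the 20 (5.0%, against 7.17% of all rows). Prim2 was dim, at percentile 18.4 of all rows by mean level. Its unadjusted p was 0.05 or more by the methods' t-test and with the intensity-dependent variance. With 1 array left out, Prim2 ran from -1.24 to -0.64 and Top1 from 0.46 to 0.69. The limma adjusted p was 0.344 for Prim2 and 0.402 for Top1. Pold2 and Pold3, further subunits of polymerase delta, differed by 0.06 with overlapping groups and by -0.37 without overlap.

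Most measured genes of G1, the phase before S phase, had differences above 0. Of 9 measured genes (Ccnd1, Ccnd2, Ccnd3, Cdk2, Cdk4, Ccnh, Cdc25a, Tfdp1 and Myc), 8 were above 0, with a median of 0.37. The share below 0 was 11.1%, against 52% of all rows and 44.2% of genes measured by name. Only Myc had an unadjusted p under 0.05, which 4.8% of all rows had in the higher direction. The E2F genes of that list had no row by name. Myc, which encodes a transcription factor that promotes entry into the cycle, read 10.50 and 10.02 against 11.18 and 11.33 in the MSCT group. The groups did not overlap, and the difference was 1.00 (standard error 0.25; limma adjusted p = 0.324). Of 13 inhibitors and quiescence genes, 6 (46.2%, against 52% of all rows and 44.2% of genes measured by name) had a difference below 0. The median was 0.00. Cdkn1b, which encodes the Cdk inhibitor p27, read 10.78 and 10.38 in the control group and 9.49 and 9.03 in the MSCT group. Both MSCT arrays were lower, with a difference of -1.32 (standard error 0.27; limma adjusted p = 0.289). Cdkn2b, another Cdk inhibitor gene, differed by -0.56. Myc lost its unadjusted p under 0.05 without MSCT replicate 2, and Cdkn1b kept it with any 1 array left out.

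**Figure D4:**
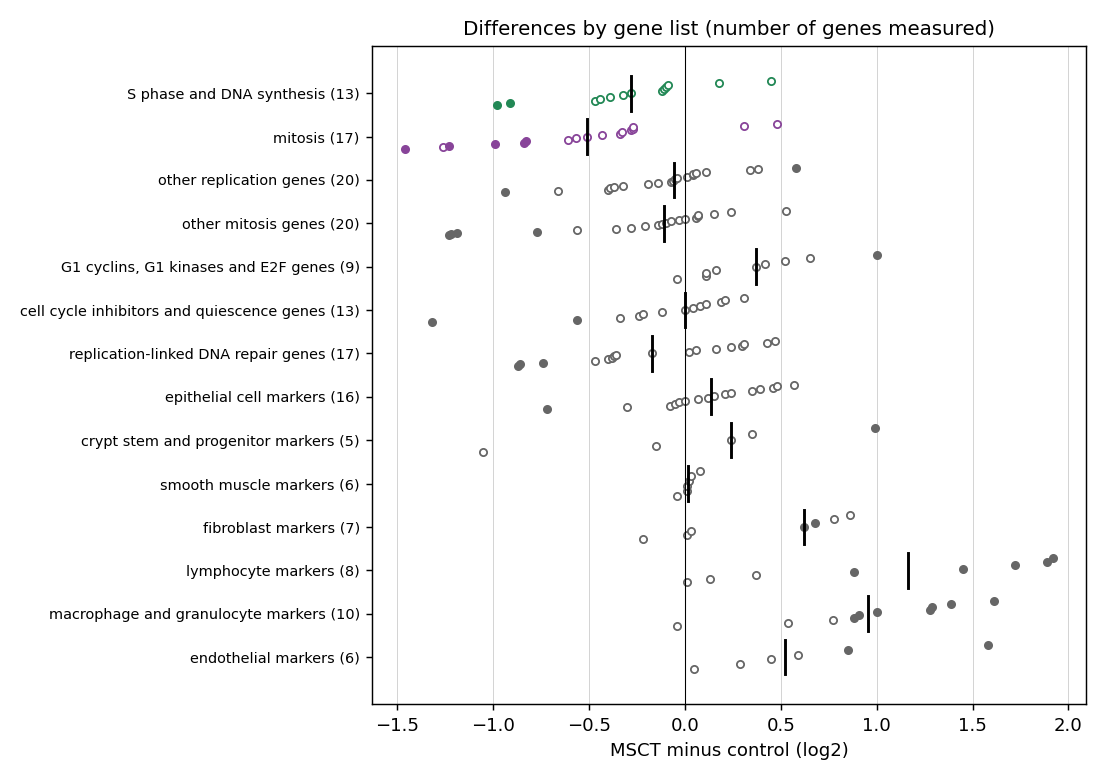
MSCT minus control difference (log2, x axis) of each measured gene by list (y axis, number of genes in brackets), with filled points for an unadjusted limma p under 0.05 and black bars for list medians. The medians are -0.51 for mitosis and -0.28 for S phase, near 0 for smooth muscle (0.02), and 1.17 and 0.96 for lymphocyte and macrophage markers.

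Markers of other cell types differed between the groups too. Of 8 measured lymphocyte markers, 5 (Gzmb, Zap70, Nkg7, Il2rg and Cd74) were higher in the MSCT group at an unadjusted p under 0.05, against 4.8% of all rows, and the median difference was 1.17. Of these 5, Gzmb, Zap70, Nkg7 and Il2rg were dim, at percentiles 11.3, 17.1, 20.9 and 28.3 of all rows by mean level. The groups overlapped for the T cell markers Cd8a (0.01), Cd3g (0.13) and Cd4 (0.37). The summed intensity of the list was 9060 to 12122 on the control arrays and 18870 to 20486 on the MSCT arrays. Most of it was Cd74 (8016 to 10824 against 16269 to 18183), an MHC class II chain that is not particular to lymphocytes. Of 10 macrophage and granulocyte markers, 7 were higher with such a p, among them Cd68 (1.29) and C1qb (1.61), and Cd14 overlapped between the groups (-0.04), with sums of 17637 to 19145 against 25322 to 29904. Of 6 endothelial markers, 2 (Plvap and Eng) were higher with such a p and 3 (Pecam1, Kdr and Emcn) overlapped between the groups, with sums of 1892 to 2834 against 3597 to 3865. Of 7 fibroblast markers, 2 (Col1a2 and Vim) were higher with such a p and 3 (Dcn, Lum and Thy1) overlapped, with sums of 39944 to 55788 against 61686 to 66473. Of 16 epithelial markers, 0 were higher and 1 (6.25%, against 7.17% of all rows) was lower with such a p, and the median was 0.14. Both MSCT arrays lay above both control arrays for 9 of the 16, against 21.3% of all rows. They lay below for 2, against 24.5% of all rows. The epithelial sums of 270314 to 271486 and 285253 to 292819 did not overlap, but differed far less in proportion. The 6 smooth muscle markers had a median of 0.02, and their sums overlapped between the groups. Of the lymphocyte list, Cd3d, Cd2, Cd5, Cd8b and Cd79b were blank on all 4 arrays, as were Itgam, S100a8 and Cxcr2 of the macrophage and granulocyte list. The part of cell makeup in the differences of the S phase and mitosis genes was not tested. The reference genes differed by 0.12 (Actb), -0.19 (Gapdh), 0.44 (Hprt1) and -0.17 (B2m), with an unadjusted p of 0.05 or more for each.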

How the data were processed

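RNA of whole colon pieces from 2 control and 2 MSCT rats was measured on NimbleGen arrays in a single color (Cy3), scanned and read by the authors with NimbleScan. The submitters' processing notes name RMA, and its role, the background correction and the combination of probes are not given in the sources used here. The authors deposited 1 linear intensity per RefSeq transcript and array. Of 26420 rows, 18350 were filled on all 4 arrays and 8070 were blank throughout. Array medians were 882.8 and 892.7 (control) and 847.6 and 881.7 (MSCT). The number of arrays limits the precision.

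Rows were named by RefSeq accession without version through the GRCr8 gene table (7068 measured rows, 38.5%). Where a gene had several rows, the one with the highest mean was taken. Log2 values without pseudocount, further scaling or filter were fitted by lmFit and eBayes of limma 3.58.1 under R 4.3.3, with Benjamini-Hochberg adjustment over all rows. The fit was tested on simulated data. Python 3.11.15, pandas 2.3.3 and matplotlib 3.10.9 were used for lists and figures.

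The members and lists were chosen with earlier results of these data known, so lists are described by counts and medians with no test. Named are genes with an unadjusted p under 0.05 or a difference over 1 in size, fixed markers, the extremes of each role group, the reference genes and up to 3 genes per other list and direction. Measured genes of the S phase and mitosis lists outside this rule and genes listed as blank or without a row were named for completeness. Nuf2, Pold2, Pold3, the G1 genes other than Myc and the cell type markers outside the rule were named after their values were seen. Alternatives were an intensity-dependent variance, removal of the 25% or 50% of rows with the lowest mean, equal array medians and quantile normalization. Others were the methods' t-test, the replicate number as a block, each array left out and an offset of 50.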

Additional observations from a re-analysis of the deposited data

How the results depend on the processing

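All 30 measured genes kept their direction under equal array medians, quantile normalization, the intensity-dependent variance, the methods' t-test, the replicate block and the offset of 50, as did those left after removing dim rows. With 1 array left out, 27 to 29 of them did. Rpa2 ran from -0.31 to 0.10 (without MSCT replicate 1) and Rrm2 from -0.24 to 0.06 (without control replicate 2), and Rrm1, Kif2c, Rfc2 and Ccnb1 also changed direction in 1 or 2 cases. With equal array medians, the median difference was -0.24 for the S phase list and -0.47 for the mitosis list. Without the dimmest 50% of rows these were -0.20 and -0.27, and of 7 mitosis genes left, 0 passed the screen, 3 (Aurkb and Cdc20 lower, Bub3 higher) had an unadjusted p under 0.05 and 1 (Aurkb) had an adjusted p under 0.05. With the intensity-dependent variance, 8 mitosis genes had an unadjusted p under 0.05 (Bub3 higher, the others lower), and 1 S phase gene (Pold1, adjusted p = 0.0406 by limma) passed after adjustment. Over all rows, 850 passed the screen, with 388 by the methods' t-test and 251 without the dimmest 50% of rows. After adjustment, 4 rows passed without the dimmest 25%, 247 without the dimmest 50% and 387 with the intensity-dependent variance, against 0.

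With each array left out, the screen was passed by 0 to 1 S phase genes (1 in each case but without MSCT replicate 2) and 2 to 4 mitosis genes (4 without control replicate 1 or without MSCT replicate 2). An unadjusted p under 0.05 was found for 1 to 3 S phase genes, with 1 without either MSCT array, and for 4 to 6 mitosis genes. The medians ran from -0.26 to -0.20 and from -0.75 to -0.49, and rows past the screen from 934 to 1565 (without control replicate 2), with 1503 without MSCT replicate 2. A lone array of a group was then taken to vary like the other group. The replicate number as a block gave 2 S phase and 7 mitosis genes with an unadjusted p under 0.05, with Ccnb2 and Kif22 added, and 3 mitosis genes past the screen, with Ccnb2 added. The deviations of the first control and first MSCT array correlated at 0.234, but the labels do not say that a number marks a pair. Averaging a gene's rows was not run as an alternative, because each of the 30 genes had a single row. The causes of these changes were not tested.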

Other observations

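Genes that repair DNA during replication were measured for 17 of 30 listed. Of the 17, 9 (52.9%, against 52% of all rows and 44.2% of genes measured by name) had a difference below 0. The median was -0.17. Lower in the MSCT group at an unadjusted limma p under 0.05 were 3 of them (17.6%, against 7.17% of all rows). Brca1, which guides repair by homologous recombination, read 7.73 and 8.40 in control rats and 7.10 and 7.31 in MSCT rats. Fancd2 of the Fanconi anemia pathway read 8.19 and 8.56 against 7.63 and 7.64, and Chek2, a kinase of the DNA damage checkpoint, 9.21 and 8.62 against 8.28 and 7.80. In each the groups did not overlap, and the differences were -0.86, -0.74 and -0.87 (limma adjusted p from 0.345 to 0.406). Each lost that p with at least 2 of the 4 arrays when left out singly, and all 3 were dim, at or below the 30th percentile of rows by mean level. Of the 14 listed markers of crypt stem and progenitor cells, 5 were measured, and these differed in both directions. No row carried the name of the 9 others (Lgr5, Smoc2, Olfm4, Sox9, Ephb2, Ephb3, Rnf43, Znrf3 and Bmi1). The study lists Olfm4 among the array genes most raised in the MSCT group. Its PCR found Olfm4 lower there than in IBD rats. Msi1 was at -1.05 with both MSCT arrays lower, but its row was very dim, at percentile 1.0 of all rows by mean level. The groups overlapped for Axin2 (-0.15) and Ascl2 (0.24). Prom1 was at 0.35 and Cd44 at 0.99 (8.73 and 9.52 against 10.37 and 9.86). Only Cd44 had an unadjusted p under 0.05, and it was lost without control replicate 1 (0.60) or MSCT replicate 1 (0.74), by the methods' t-test and with the replicate block. Elf3, a transcription factor of the epithelium, was the only epithelial marker with an unadjusted p under 0.05 and was lower. Its mean was 13.73 in control rats and 13.01 in MSCT rats (SD 0.11 and 0.01, n = 2 each). The difference was -0.72 (standard error 0.19; limma adjusted p = 0.33), and ran from -0.79 to -0.64 with 1 array left out.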
